A study of Homo sapiens with 6 samples.

Results

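The genes described are 9 components of the VHL-CUL2 ubiquitin ligase and of the machinery that switches it on and off, chosen by symbol from the 56305 genes of each library. All 9 were found. They are 5 ligase subunits (VHL, CUL2, RBX1, TCEB1 and TCEB2) and 4 neddylation partners (NEDD8, UBE2M, CAND1 and COPS5). TCEB1 and TCEB2 are the older symbols of ELOC and ELOB, the Elongin C and Elongin B genes. RNA came from MOLM13, an acute myeloid leukemia (AML) cell line with a FLT3 internal tandem duplication (FLT3-ITD). The cells had spent 24 h with vehicle (DMSO, 3 libraries) or with 1 μM of the METTL3 degrader ZW27941 (3 libraries). Both groups are the same cell line, and the labels do not say whether the libraries of a group came from separate cultures, so p-values measure only the spread between these libraries. The comparison asks whether the transcripts of the ligase that ZW27941 recruits differed after a day on the compound.

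ZW27941 is a proteolysis-targeting chimera (PROTAC), a molecule with a ligand for METTL3 at one end and a ligand for VHL at the other. VHL is the substrate receptor of the ligase and is best known for binding hydroxylated HIF-alpha subunits when oxygen is present. Elongin B and Elongin C connect VHL to the scaffold CUL2, and the RING protein RBX1 brings in the ubiquitin-charged enzyme. A cullin becomes active when the ubiquitin-like protein NEDD8 is attached to it, for CUL2 through the conjugating enzyme UBE2M. The COP9 signalosome, whose catalytic subunit is COPS5, removes NEDD8, and CAND1 then helps the cullin to exchange its substrate receptor.

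The libraries held from 143454176 to 178744976 counts on genes, and between 37.4% and 39.8% of the reads tallied per library were assigned to no gene. The 9 markers listed for a myeloid leukemia line of this kind, among them FLT3, SPI1 and MEIS1, ranged from 45.0 to 574 CPM (counts scaled to library size after TMM normalization). Of these, 5 were called higher on ZW27941 and none lower (CSF1R, SPI1, MPO, CEBPA and PTPRC), where 16.3% of all genes tested were called higher and 13.8% lower. CSF1R had a log2 fold change of 0.40. The groups overlapped for PTPRC, and its call was lost in several other fits, among them that with RLE size factors. Under upper quartile normalization 2 of the 9 markers were called higher and 1 lower. The summed level of the 9 markers was from 2020 to 2060 CPM in DMSO and from 2120 to 2130 CPM on ZW27941, and its part in the results below was not tested. Of 10 markers of T, B, erythroid, epithelial, fibroblast and endothelial cells, 9 were below 1 CPM in every library and 2 (HBG1 and CDH5) had no count. The METTL3 transcript was at 120, 122 and 122 CPM in DMSO and at 119, 121 and 128 CPM on ZW27941, with a log2 fold change of 0.013 (95% interval −0.044 to 0.071). The compound acts on the METTL3 protein, so this transcript is not a check of the labels.

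All 9 genes passed the filter on low counts. Of these, 4 changed on ZW27941, called where edgeR's quasi-likelihood test gave a p under 0.05 after Benjamini-Hochberg adjustment over the 20399 genes tested. VHL and CAND1 rose, while TCEB2 and UBE2M fell. In such bulk RNA, a change in the make-up of the cells and a change of RNA per cell cannot be told apart. For comparison, 30.1% of all genes tested passed this threshold, 16.3% higher and 13.8% lower. Under upper quartile normalization in place of TMM the balance over all genes turned, with 2644 higher and 3643 lower against 3333 and 2816. With so many genes called, 4 of 9 (44.4%) is not shown to be particular to these genes. The changes were also small, since TCEB2 fell by 9.20% and CAND1 rose by 7.37%. Among the 6149 genes called, 3801 (61.8%) had a larger absolute log2 fold change than any of the 9, and the median of the genes called was 0.17. The median log2 fold change of the 9 genes was −0.028, against −0.0019 over all genes tested. The 3 libraries of each group did not overlap for 4 of the 9 genes (CUL2, TCEB2, UBE2M and CAND1), 1 higher and 3 lower on ZW27941, where this held for 41.6% of all genes tested, 21.7% higher and 19.9% lower.

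**Figure D1:**
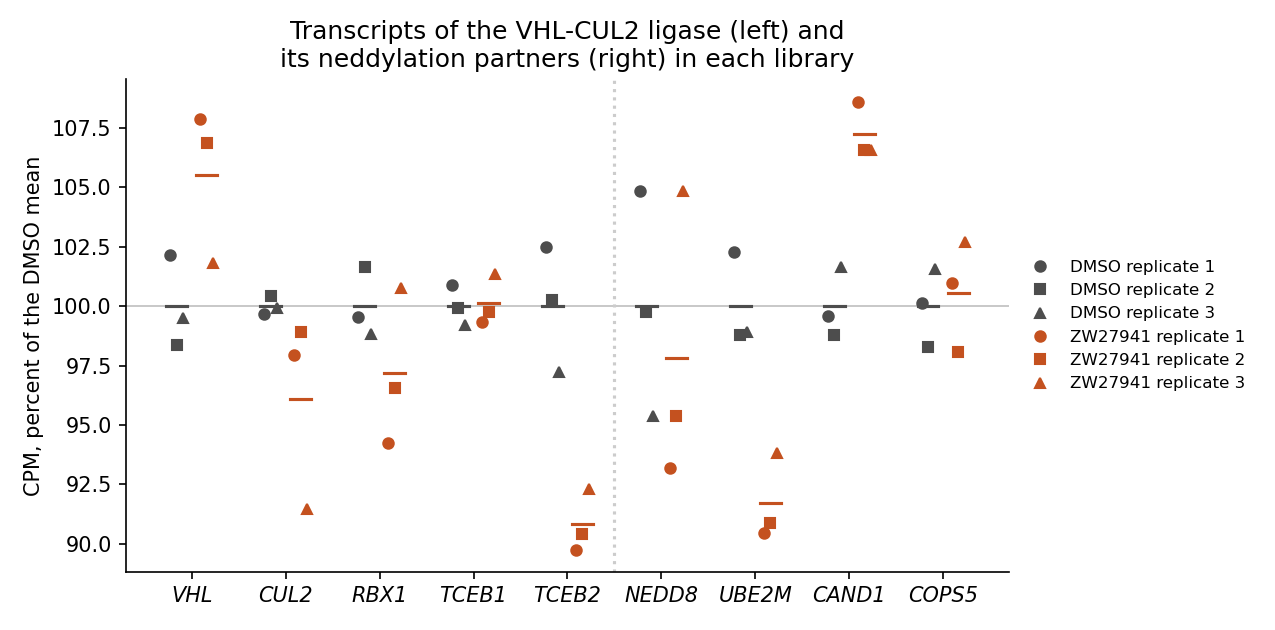
Normalized counts (CPM) of each gene in each library, as a percentage of that gene's mean in DMSO, with 5 ligase subunits on the left and 4 neddylation partners on the right. Points are libraries, the symbol gives the replicate number and bars are group means. The ZW27941 libraries of TCEB2, UBE2M and CUL2 lie below all DMSO libraries and those of CAND1 above them, although CUL2 was not called. VHL, which was called, overlaps through ZW27941 replicate 3.

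VHL, the subunit that the degrader binds, lies on chromosome 3 (GRCh38, 10141008 to 10152220, plus strand), and no other annotated gene shares its exons. It was at 97.5, 93.9 and 95 CPM in DMSO and at 103, 102 and 97.2 CPM on ZW27941. ZW27941 replicates 1 and 2 were above every DMSO library, and replicate 3 was just under DMSO replicate 1, so the groups overlapped. Means were 95.5 ± 1.85 CPM in DMSO and 101 ± 3.10 CPM on ZW27941 (SD, n = 3 each), a rise of 5.55% and a log2 fold change of 0.078 (standard error 0.027, 95% interval 0.021 to 0.13, edgeR adjusted p = 0.0342). The call did not hold under upper quartile normalization (log2 fold change 0.055, edgeR adjusted p = 0.138). It was also lost without DMSO replicate 2 (0.067), DMSO replicate 3 (0.075), ZW27941 replicate 1 (0.061) or ZW27941 replicate 2 (0.068), and kept without DMSO replicate 1 or ZW27941 replicate 3. The direction was the same in all these fits, and the upper end of the interval is a rise of 0.13 on the log2 scale. VHLL, a VHL-like gene in the annotation, had 10 counts over all libraries.

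The scaffold CUL2 (chromosome 10, 35008551 to 35090642, minus strand) was at 40, 40.3 and 40.1 CPM in DMSO and at 39.3, 39.7 and 36.7 CPM on ZW27941. All ZW27941 libraries were below all DMSO libraries, and replicate 3 was the lowest of them. The log2 fold change of −0.058 (standard error 0.031, 95% interval −0.12 to 0.0070) did not pass (edgeR adjusted p = 0.176). Without ZW27941 replicate 3 it was −0.027 (edgeR adjusted p = 0.567), and with each library left out it ranged from −0.080 to −0.027. Among the 16116 genes with GC content and length values (79.0% of those tested), it passed with the trends of the counts on both taken out of every library (−0.072, edgeR adjusted p = 0.0428) and not with the trends kept (−0.058, edgeR adjusted p = 0.165), both chosen after seeing the data.

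RBX1, the RING subunit (chromosome 22, 40951347 to 40973309, plus strand), was at 56.5, 57.7 and 56.1 CPM in DMSO and at 53.5, 54.8 and 57.2 CPM on ZW27941. The groups overlapped because of ZW27941 replicate 3, and the log2 fold change was −0.041 (95% interval −0.10 to 0.019, edgeR adjusted p = 0.313). It was −0.071 without ZW27941 replicate 3, −0.019 without ZW27941 replicate 1 and −0.065 under upper quartile normalization, and passed in none of these fits. TCEB1, which encodes the Elongin C that contacts both VHL and CUL2, was at 70.6, 69.9 and 69.4 CPM in DMSO and at 69.5, 69.8 and 70.9 CPM on ZW27941. These libraries spread by under 2 CPM in all, and the log2 fold change was 0.0020 with a 95% interval from −0.051 to 0.055. The files list 32 TCEB1 pseudogenes, of which TCEB1P2 held 2.53% and TCEB1P19 0.939% as many counts as TCEB1 over all libraries, and neither passed (log2 fold changes 0.026 and 0.15, edgeR adjusted p = 0.871 and 0.498).

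TCEB2, which encodes the Elongin B that pairs with Elongin C, had the largest fold change of the 9 genes. It lies on chromosome 16 (2771414 to 2777297, minus strand). It was at 64.4, 63.0 and 61.1 CPM in DMSO and at 56.4, 56.8 and 58.0 CPM on ZW27941. Every ZW27941 library was below every DMSO library. Means were 62.9 ± 1.66 CPM in DMSO and 57.1 ± 0.862 CPM on ZW27941 (SD, n = 3 each), a log2 fold change of −0.14 (standard error 0.028, 95% interval −0.20 to −0.082, edgeR adjusted p = 0.000547). Of its exon bases, 16.8% are also exon of SRRM2 on the opposite strand, a splicing factor gene at 1010 ± 18.8 CPM in DMSO and 1140 ± 32.4 CPM on ZW27941 (SD, n = 3 each). SRRM2 rose by 0.17 on the log2 scale, the direction opposite to TCEB2. Whether the counting used strand is not given in the sources used here, and the part of the overlap in the TCEB2 result was not tested.

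**Figure D2:**
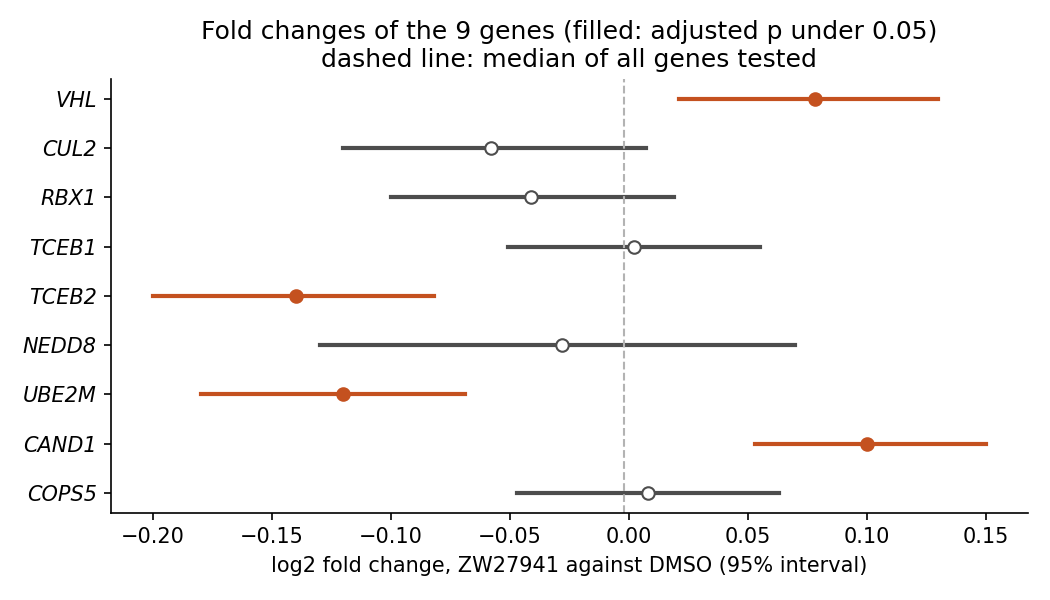
Log2 fold change of each gene on ZW27941 against DMSO with its 95% interval from edgeR's quasi-likelihood fit (3 libraries a group). Filled orange points passed an adjusted p of 0.05, and the dashed line is the median of all genes tested, −0.0019. TCEB2 and UBE2M lie below it and VHL and CAND1 above it, with VHL nearest to it among the 4 that passed.

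NEDD8, the modifier that activates cullins, had the fewest counts of the 9 genes. It was at 14.4, 13.7 and 13.1 CPM in DMSO and at 12.8, 13.1 and 14.4 CPM on ZW27941. The groups overlapped over nearly their whole range, and the log2 fold change was −0.028 (standard error 0.047, 95% interval −0.13 to 0.070, edgeR adjusted p = 0.706). The annotation holds a read-through gene, NEDD8-MDP1, that shares its exons, and HTSeq listed NEDD8-MDP1 at 0 in every library. GMPR2 on the opposite strand shares 33 exon bases with NEDD8 and rose by 0.11 on the log2 scale (edgeR adjusted p = 0.00503). The part of this overlap in the NEDD8 counts was not tested. The sequence below is the coding sequence of a NEDD8 transcript (GENCODE v29 on GRCh38, chromosome 14, minus strand, spliced between 24217130 and 24232267, stop codon left out). It is shown because its 187 capitals, 77.0% of 243 bases, are exon of NEDD8-MDP1 as well.
NEDD8 coding sequence: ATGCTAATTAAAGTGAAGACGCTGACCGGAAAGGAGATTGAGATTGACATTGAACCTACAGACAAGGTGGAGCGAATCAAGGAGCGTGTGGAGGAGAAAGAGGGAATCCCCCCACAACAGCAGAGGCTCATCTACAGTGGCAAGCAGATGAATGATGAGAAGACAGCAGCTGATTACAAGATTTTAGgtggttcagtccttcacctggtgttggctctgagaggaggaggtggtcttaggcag
Reads that HTSeq cannot give to 1 gene go to its tally of ambiguous reads, which took from 2.69% to 2.80% of the reads per library. How many of them belong to NEDD8 cannot be read from the deposited counts.

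UBE2M, the conjugating enzyme that passes NEDD8 to CUL2, was at 76.1, 73.5 and 73.6 CPM in DMSO and at 67.3, 67.6 and 69.8 CPM on ZW27941. All ZW27941 libraries were below all DMSO libraries. Means were 74.4 ± 1.47 CPM in DMSO and 68.3 ± 1.36 CPM on ZW27941 (SD, n = 3 each), so that UBE2M fell by 8.24%, with a log2 fold change of −0.12 (standard error 0.027, 95% interval −0.18 to −0.069, edgeR adjusted p = 0.00117). UBE2M lies on chromosome 19 (58555712 to 58558960, minus strand) and has a pseudogene, UBE2MP1, on chromosome 16 (35169692 to 35170241, minus strand). Their first coding bases are set side by side because reads from such stretches can be placed on either gene. Capitals mark the 3 bases that differ over bases 2 to 91 of the UBE2M coding sequence.
UBE2M: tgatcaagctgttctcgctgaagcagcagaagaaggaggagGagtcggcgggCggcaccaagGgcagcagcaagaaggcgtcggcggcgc
UBE2MP1: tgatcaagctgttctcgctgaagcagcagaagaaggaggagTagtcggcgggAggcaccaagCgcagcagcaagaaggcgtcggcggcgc
Over 548 aligned bases, 97.1% were identical, with a longest identical run of 130 bases. UBE2MP1 held 92, 87 and 100 counts in DMSO and 73, 69 and 78 on ZW27941, or 0.753% as many as UBE2M over all libraries. The pseudogene fell as well (log2 fold change −0.45, standard error 0.16, edgeR adjusted p = 0.0354), and the part of shared reads in the UBE2M result was not tested.

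CAND1, the exchange factor, lies on chromosome 12 (67269281 to 67319951, plus strand) and had the most counts of the 9 genes. It was at 243, 241 and 248 CPM in DMSO and at 265, 260 and 260 CPM on ZW27941. Every ZW27941 library was above every DMSO library. Means were 244 ± 3.69 CPM in DMSO and 262 ± 2.55 CPM on ZW27941 (SD, n = 3 each), a log2 fold change of 0.10 (standard error 0.024, 95% interval 0.053 to 0.15, edgeR adjusted p = 0.00225). COPS5, on chromosome 8, was at 82.3, 80.8 and 83.5 CPM in DMSO and at 83.0, 80.6 and 84.4 CPM on ZW27941. Its groups overlapped fully, with a log2 fold change of 0.0081 and a 95% interval from −0.047 to 0.063. COPS5 shares 198 exon bases with PPP1R42, which was listed at 0, and 129 with CSPP1 on the opposite strand, which did not pass (log2 fold change −0.042, edgeR adjusted p = 0.332).

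The 2 genes called lower and the 2 called higher also differed in the make-up of their longest annotated transcripts. The longest annotated transcripts of TCEB2 and UBE2M were the shortest of the 9 genes, with 997 and 1508 bases, and had the highest GC content, 61.1% and 65.7%. Those of VHL and CAND1 had 3737 and 11251 bases and a GC content of 47.3% and 39.6%. The longest transcripts of the genes not called had from 1871 (RBX1) to 5691 bases (COPS5) and a GC content from 39.1% (COPS5) to 49.5% (TCEB1). COPS5 thus had less GC than CAND1, and TCEB1 more than VHL. The longest transcript need not be the one counted. For NEDD8 it has 2300 bases, while the transcript whose coding sequence is shown above has 708, fewer than the longest of TCEB2. A relation of fold change to length or GC content over the 9 genes was not tested. Over the 16116 genes with both values, the same 4 genes were called with the trends kept, and these and CUL2 with the trends taken out (log2 fold changes without the trends 0.064 for VHL, −0.14 for TCEB2, −0.13 for UBE2M and 0.069 for CAND1, edgeR adjusted p from 0.000132 to 0.0346). Since under 80% of the genes tested had both values, this is no check over all genes.

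The 100 bases before the RefSeq start (GRCh38.p14) are shown for TCEB2, UBE2M and CAND1, the genes called with an entry in the promoter table used. Capitals mark GGGCGG on either strand, the letters of a GC box, with overlapping matches counted separately. TCEB2 is at chr16:2777281-2777380 (minus strand), UBE2M at chr19:58558612-58558711 (minus strand) and CAND1 at chr12:67269258-67269357 (plus strand).
TCEB2 promoter: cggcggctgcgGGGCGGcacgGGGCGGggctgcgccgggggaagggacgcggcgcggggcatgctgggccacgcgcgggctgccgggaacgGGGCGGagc
UBE2M promoter: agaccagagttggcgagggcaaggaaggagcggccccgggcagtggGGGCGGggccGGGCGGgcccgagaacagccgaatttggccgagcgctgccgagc
CAND1 promoter: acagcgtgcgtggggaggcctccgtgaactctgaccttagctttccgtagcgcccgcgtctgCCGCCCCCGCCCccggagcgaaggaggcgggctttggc
The windows held 3, 2 and 2 matches. Those of RBX1, NEDD8 and CUL2 (several starts), which were not called, held 0, and 31.3% of all 35116 promoters in the table held at least 1. The 0 holds for these 100 bases only. In the table's full entries of 300 bases, RBX1, NEDD8 and an entry of CUL2 held GGGCGG on either strand outside these windows. TCEB2 and CAND1 changed in opposite directions with these letters in both windows. VHL had no entry in the table, and TCEB1 and COPS5, which were not called, were left out by choice and their windows not searched.

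Ratios of counts within a library do not depend on how libraries are scaled, so 5 of them were compared between the groups by a two-sided exact permutation test. With 3 libraries against 3 the smallest p that this test can give is 0.1, and Benjamini-Hochberg adjustment over the 5 ratios raises this to 0.167, so none could pass 0.05. VHL to CUL2 was 2.437, 2.328 and 2.368 in DMSO and 2.625, 2.567 and 2.646 on ZW27941. The groups did not overlap, and the mean log2 ratio was higher by 0.14 (exact permutation p = 0.1). VHL alone overlapped between the groups, while CUL2 alone and the ratio did not. How often the ratios of other gene pairs do not overlap was not computed. Of all genes tested, 41.6% did not overlap on their own, so the ratios without overlap are not shown to be particular to these genes. TCEB1 to TCEB2, the genes of the Elongin pair, was 1.095, 1.109 and 1.135 in DMSO and 1.232, 1.230 and 1.221 on ZW27941, again without overlap and higher by 0.14 on the log2 scale (exact permutation p = 0.1). COPS5 to CAND1 was 0.339, 0.336 and 0.337 in DMSO and 0.314, 0.310 and 0.325 on ZW27941, lower by 0.095 on the log2 scale (exact permutation p = 0.1). VHL to TCEB1 overlapped between the groups (difference 0.076, exact permutation p = 0.200). RBX1 to CUL2 overlapped too (difference 0.017, exact permutation p = 1.00) and became −0.044 without ZW27941 replicate 3, the library in which CUL2 was lowest and RBX1 highest within its group.

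**Figure D3:**
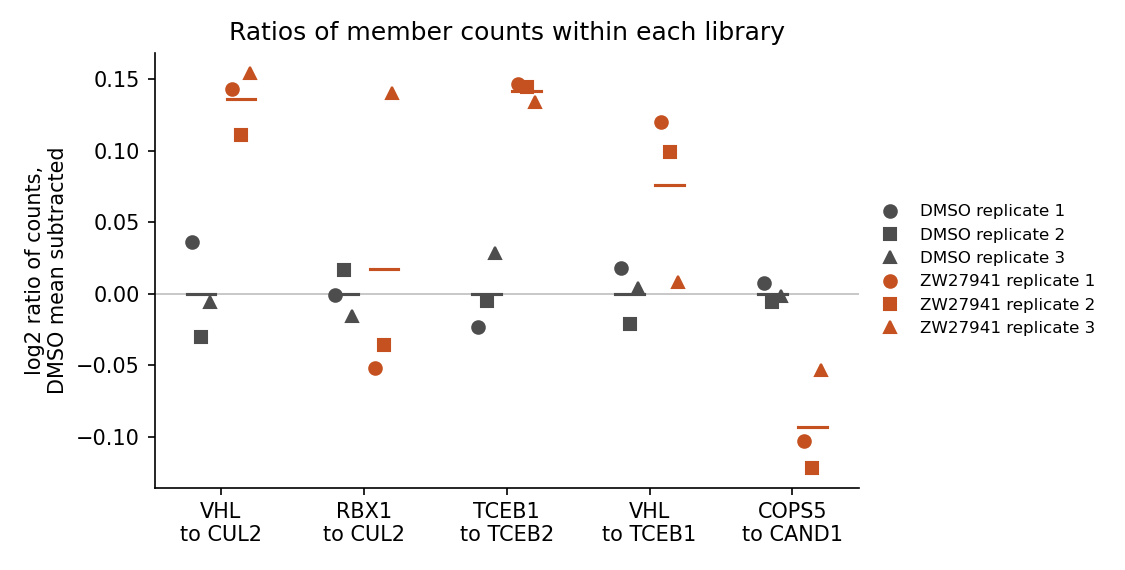
Log2 ratios of counts between pairs of genes within each library, with the DMSO mean of each ratio subtracted. Points are libraries, the symbol gives the replicate number and bars are group means. The ratios of VHL to CUL2, TCEB1 to TCEB2 and COPS5 to CAND1 do not overlap between the groups, and ZW27941 replicate 3 stands apart for RBX1 to CUL2.

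Levels were compared between genes as CPM per kb of exon that no other annotated gene shares. In DMSO TCEB2 was highest at 67.0 ± 1.77 CPM per kb (SD, n = 3), followed by UBE2M at 40.6 ± 0.804, VHL at 22.7 ± 0.438, RBX1 at 18.4 ± 0.266, CAND1 at 17.8 ± 0.270, TCEB1 at 14.2 ± 0.121, COPS5 at 11.0 ± 0.187 and CUL2 at 7.80 ± 0.0331. NEDD8 came last at 4.08 ± 0.201 CPM per kb, for a gene most of whose coding bases are shared. Its lengths were 3358 bases of unshared exon and 2300 bases in the longest transcript. The NEDD8 transcript whose coding sequence is shown above has only 708 bases. Its level per kb of that transcript was not computed, so the low place of NEDD8 holds for the lengths used only. The lowest library of RBX1 and the highest of CAND1 were both at 18.1, so the order of these neighbours is within the spread. Per kb of the longest transcript instead, RBX1 (30.3 CPM per kb) came before VHL (25.5) and TCEB1 (25.2), and the libraries of VHL and TCEB1 overlapped. TCEB2 and UBE2M were highest and CUL2 and NEDD8 lowest under both of these lengths. Within the ligase, the scaffold CUL2 was thus the subunit with the lowest transcript level per length, below VHL under both lengths.

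**Figure D4:**
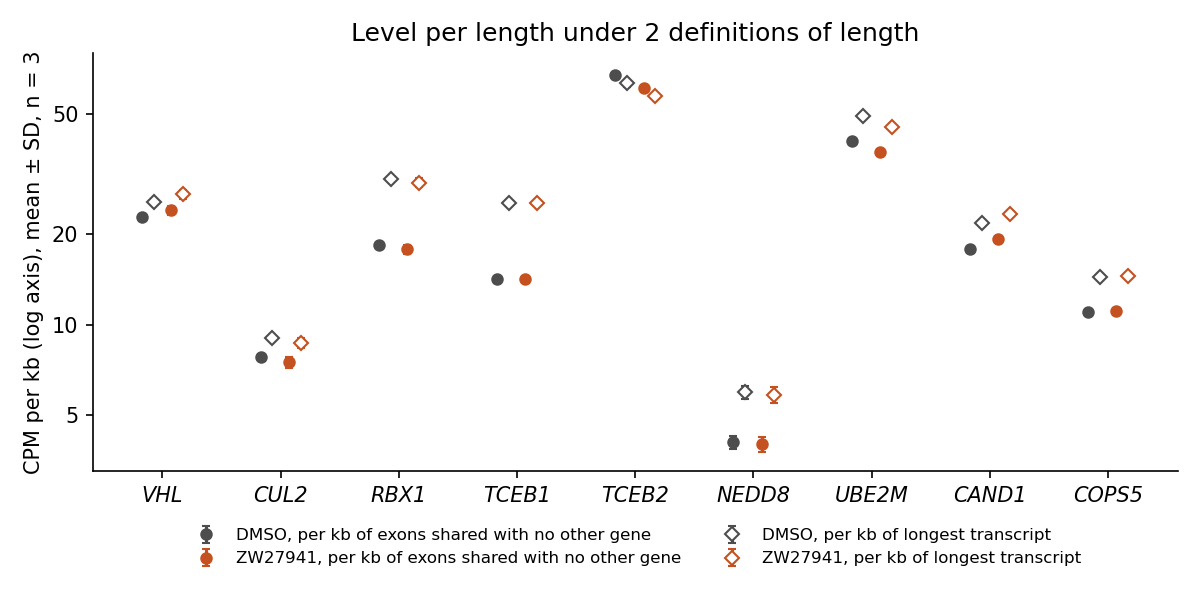
Mean CPM per kb (log axis) of each gene in DMSO and on ZW27941, with filled circles for length as exon bases shared with no other gene and open diamonds for the longest annotated transcript. Error bars are SD (n = 3) and mostly smaller than the symbols. TCEB2 is highest at 67.0 and CUL2 at 7.80 and NEDD8 at 4.08 are lowest in DMSO, and the choice of length moves RBX1 and TCEB1 most.

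The genes whose log2 CPM followed VHL most closely over the 6 libraries were RP11-81A1.6, AFDN, LINC00843, N4BP2 and DHX8, with Pearson's r from 0.991 to 0.996, the highest of 12222 genes compared. These 6 points share the library and the treatment, and the values are given as a description. For AFDN, as for VHL, ZW27941 replicates 1 and 2 were the highest libraries and DMSO replicates 2 and 3 the lowest.

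Genes around the ligase were taken from 8 lists, of which 83 of 85 genes could be tested. Of these, 18 rose and 15 fell by the same test (39.8%, against 30.1% of all genes tested), and their median log2 fold change was 0.0029. In the rest of the neddylation cascade, 1 of 11 genes rose and 2 fell. NAE1, a subunit of the enzyme that activates NEDD8, averaged 58.2 ± 1.11 CPM in DMSO and 52.7 ± 0.373 CPM on ZW27941 (SD, n = 3 each; log2 fold change −0.14). DCUN1D1 rose by 0.15 and DCUN1D3 fell by 0.24 on the log2 scale, both genes for proteins that help to load NEDD8 on cullins.

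The COP9 signalosome takes NEDD8 off cullins. Of its 9 genes other than COPS5, 2 rose and 3 fell. COPS3 fell from 61.1 ± 1.31 to 55.7 ± 2.01 CPM (SD, n = 3 each; log2 fold change −0.14) and COPS4 had a log2 fold change of −0.11. COPS9, its smallest subunit, rose by 0.23 on the log2 scale. Among the 7 other cullins only CUL7 passed, with a fall from 69.2 ± 2.90 to 62.6 ± 1.41 CPM (SD, n = 3 each; log2 fold change −0.15).

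Of the 11 other substrate receptors of CUL2, which compete with VHL for the scaffold, 3 rose and 1 fell. LRR1 rose most, from 25.7 ± 0.907 to 30.9 ± 0.529 CPM (SD, n = 3 each), a log2 fold change of 0.27 (edgeR adjusted p = 1.76e-06). ZYG11B, a receptor of proteins with an N-terminal glycine, rose by 0.13, and KLHDC2, a receptor of C-terminal degrons, fell by 0.15 on the log2 scale. Elongin B and Elongin C also serve CUL5 ligases and Elongin A. Of 18 tested genes for such partners, 6 rose and 1 fell. SOCS1, an inhibitor of cytokine signalling, rose from 16.3 ± 0.237 to 20.3 ± 0.718 CPM (SD, n = 3 each; log2 fold change 0.32), SOCS4 rose by 0.22 and SOCS2 by 0.11.

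Adaptors and receptors of other cullin ligases changed in 6 of 12 cases, 1 higher and 5 lower, although the median of the list was 0.0061. KEAP1, the CUL3 receptor of NRF2, rose by 0.17, while DDB1, the adaptor of CUL4 ligases, averaged 251 ± 1.27 CPM in DMSO and 234 ± 2.29 CPM on ZW27941 (SD, n = 3 each; log2 fold change −0.10) and DDB2 had a log2 fold change of −0.16. CRBN, the receptor recruited by the other common kind of PROTAC, had a log2 fold change of −0.099 (edgeR adjusted p = 0.0172) and was named after its values had been seen. Of 9 enzymes that supply ubiquitin to cullin ligases, UBE2R2 rose by 0.22 and ARIH2 by 0.096, and UBA1, the ubiquitin-activating enzyme, fell from 283 ± 4.62 to 251 ± 2.23 CPM (SD, n = 3 each; log2 fold change −0.17).

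Of 6 tested genes for HIF subunits and hydroxylases, which provide the natural substrates of VHL, 3 rose and 1 fell. HIF1A rose by 0.14 and EGLN1, which marks HIF-alpha for VHL, by 0.17 on the log2 scale, and HIF1AN had a log2 fold change of −0.085.

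**Figure D5:**
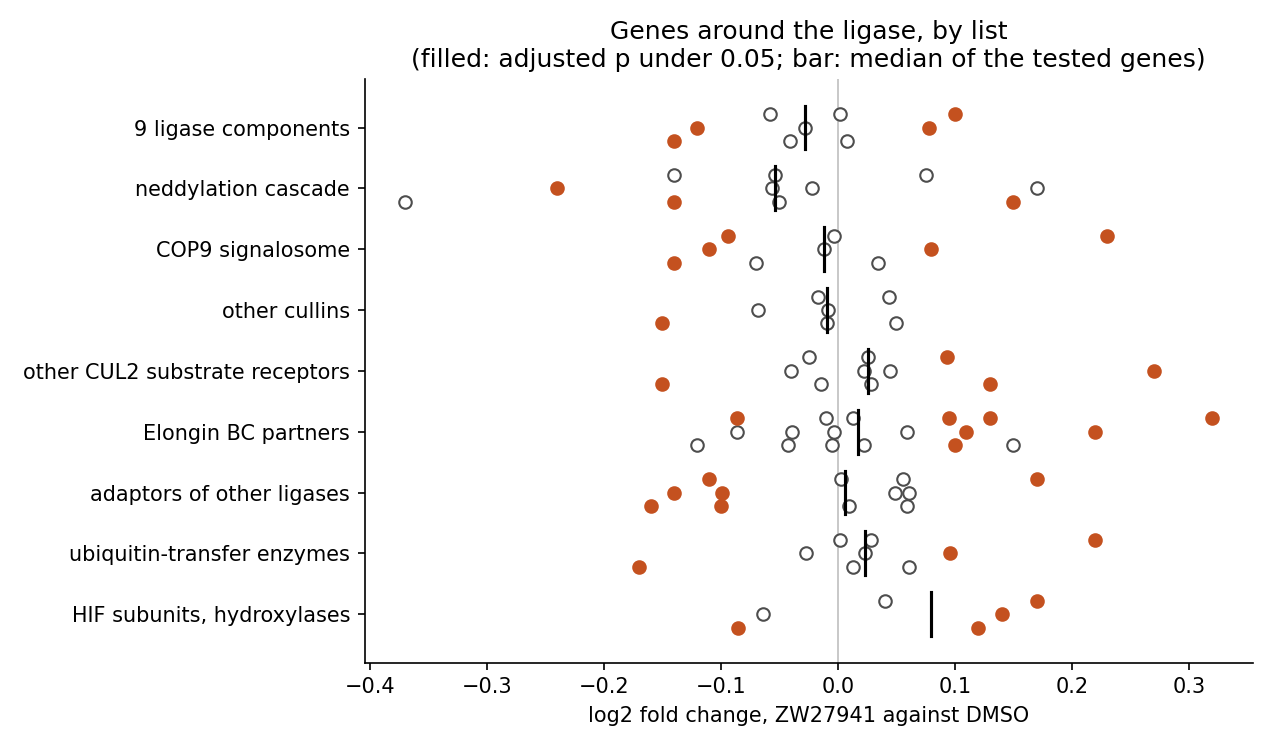
Log2 fold changes on ZW27941 against DMSO for the 9 genes and for 8 lists of genes around them, 1 point a gene, filled where the adjusted p was under 0.05, with the median of each list as a bar. Vertical offsets within a list only separate the points. Called genes lie on both sides of 0 in each list except that of other cullins, where CUL7 was the only one.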

How the data were processed

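For each of the 6 libraries the authors deposited whole-number read counts by gene symbol. The submitters' processing notes name HISAT2, SAMtools 1.19.2, HTSeq 2.0.3 and hg38. The annotation and the strand and overlap settings of the counting are not given in the sources used here. The 5 HTSeq tallies were left out. The tests were run with edgeR 4.0.16 under R 4.3.3 (TMM, filterByExpr, quasi-likelihood test) over 20399 genes, with Benjamini-Hochberg adjustment and a threshold of 0.05. The edgeR test was tried on simulated counts with changes larger than that of any of the 9 genes, so this does not cover changes of their size. Intervals are 95% intervals from the fit. Alternatives used DESeq2 1.42.0, limma 3.58.1 (voom), other normalizations, other filters, a replicate block and each library left out. Length, GC content and overlaps came from GENCODE v29 (GRCh38), promoters from RefSeq (GRCh38.p14). ELOC and ELOB stand for TCEB1 and TCEB2. Named genes were METTL3, the 9 members, their copies and overlapping genes with counts, the 3 lowest p among called genes of each list, and the 5 genes most like VHL. Of the copies, TCEB1P24, TCEB1P28 and TCEB2P2, with at most 3 counts each over all libraries, were not described. CRBN, PPP1R42, NEDD8-MDP1 and markers were named outside this rule, after their values had been seen. The members and lists were chosen with earlier results of these data known.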

Additional observations from a re-analysis of the deposited data

How the results depend on the processing

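The number of the 9 genes called, 4, was from 3 to 4 under the planned normalizations, tests and filters and with the replicate block, from 3 to 4 with each library left out, and, over the 16116 genes with GC content and length values, 4 with the trends on both kept and 5 with them taken out. The number of all genes called, 6149, was from 4836 to 6134 with each library left out, and that of the 8 lists, 33, from 23 to 30. TCEB2, UBE2M and CAND1 kept their calls in all these fits. CUL2 was from −0.080 to −0.027 and RBX1 from −0.071 to −0.019 with each library left out. VHL was from 0.061 to 0.10 with each library left out and 0.055 under upper quartile normalization. With the trends taken out CUL2 was −0.072, from values for 79.0% of the genes tested, so that this check is void over all genes, while all 9 members had them. Signs changed where values were near 0, on the log2 scale. TCEB1 was −0.0017 with RLE size factors and with DESeq2, −0.021 with upper quartile and −0.0078 without the trends, and from −0.0091 to 0.0091 with each library left out. COPS5 was −0.015 with upper quartile and −0.011 without the trends, and from −0.0092 to 0.025 with each library left out. NEDD8 was from −0.081 to 0.0091 and RBX1 to CUL2 from −0.044 to 0.052 with each library left out. METTL3 was −0.010 with upper quartile and from −0.023 to 0.035 with each library left out. The cause of these changes was not tested. The labels do not say whether the replicate numbers pair the libraries. Same-numbered libraries had correlations of 0.028, −0.057 and 0.051 between their deviations, against from −0.095 to 0.066 for different numbers. These values show no shared deviation but cannot tell how the cultures were set up. With the number as a block, 6010 genes and 4 of the 9 were called. Paired ratios under the block differed by 0.14 for VHL to CUL2 and can give no exact p under 0.25. A scaling of the ratios by length was not run, since it cancels. Counting precision limits NEDD8 most, with from 1895 to 2316 counts per library.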

Other observations

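The share of reads that HTSeq assigned to no annotated feature was 12.4%, 12.2% and 11.9% in DMSO and 11.4%, 11.1% and 10.5% on ZW27941, lower in every ZW27941 library. Reads aligned to several places made up 5.25% of ZW27941 replicate 3 and from 3.63% to 4.07% of the other 5 libraries.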
